A study of Homo sapiens with 18 samples.

Results

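The matrix metalloproteinases MMP1, MMP2, MMP3, MMP10 and MMP14 and the tissue inhibitors TIMP1, TIMP2 and TIMP3 were followed in IMR90, a line of human lung fibroblasts. These 8 genes were taken by symbol from the 38716 symbols listed in the files, and all 8 were present. There were 18 libraries, 9 of mRNA-seq and 9 of Ribo-seq, a method that reads the stretches of mRNA protected by ribosomes (footprints), with 3 replicates for each of 3 conditions. Young cells were proliferating, old cells had reached replicative senescence (RS) by passaging, and ICM cells had been given inflachromene, a small molecule known to target HMGB1 and HMGB2. All groups came from this 1 cell line, and the labels name no genetic change and no dose or duration of the treatment. The paper describes several days of ICM for its Ribo-seq. The design thus asks how the protease and inhibitor genes stand in senescence reached by passaging and in the state induced by ICM, both against young cells and against each other.

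Matrix metalloproteinases are zinc-dependent enzymes that cut the proteins of the extracellular matrix. They are made as inactive precursors, and a propeptide has to be removed before they can act. TIMPs bind the catalytic zinc of the active enzymes and block it. Fibroblasts are a main source of both in connective tissue, and secreted metalloproteinases are well-known parts of the senescence-associated secretory phenotype (SASP).

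The shared chemistry of the proteases can be read from their genes. Every metalloproteinase carries 3 histidines that hold the catalytic zinc, and the coding sequences of this site are shown because they differ little between MMP3 and MMP10, the 2 genes with the largest rises, so that some reads may come from either gene. Capitals mark the 3 histidine codons, and sequences are written 5′ to 3′ on the coding strand of GRCh37 (GENCODE genes).
MMP1: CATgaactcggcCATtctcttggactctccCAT
MMP3: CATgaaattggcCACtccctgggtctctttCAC
MMP10: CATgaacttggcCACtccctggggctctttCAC
MMP2: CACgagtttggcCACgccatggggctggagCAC
MMP14: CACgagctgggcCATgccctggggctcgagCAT

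The sites of MMP3 (chr11:102711266-102711298, minus strand, exon 5) and MMP10 (chr11:102647449-102647481, minus strand, exon 5) shared 31 of 33 bases. MMP1 (chr11:102666280-102666312, minus strand, exon 5) lies in the same cluster of genes on chromosome 11 and shared 24 bases with MMP3 and 25 with MMP10. The sites of MMP2 (chr16:55525739-55525771, plus strand, exon 8) and MMP14 (chr14:23312492-23312524, plus strand, exon 5) shared 27 of 33 bases. Over the whole coding sequence, 9.18% of the 30-base windows of MMP3 and 9.20% of those of MMP10 were also found in the other gene, and 7.52% of the windows of MMP2 occurred in a second annotated gene. The read values of MMP3 and MMP10 were not whole numbers in 6 of 9 mRNA-seq libraries, so that some reads had been divided between features. Part of the level of either gene may therefore belong to the other, and the size of that part was not tested. In ICM replicate 1 of mRNA-seq MMP3 had 1817.5 CDS reads and MMP10 321.5, so the same number of divided reads weighs more in MMP10.

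The inhibitors meet the zinc with the first residues of the mature protein, which begins with a cysteine and has another close behind it. The start of the mature inhibitor is shown for the 3 TIMP genes, with these 2 cysteine codons in capitals, because the genes moved apart from each other although their inhibitory ends are related.
TIMP1: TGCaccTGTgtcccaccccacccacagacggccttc
TIMP2: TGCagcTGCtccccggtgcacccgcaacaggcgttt
TIMP3: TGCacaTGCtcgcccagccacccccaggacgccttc

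These stretches lie at chrX:47442884-47442919 (plus strand, exon 2) in TIMP1, chr17:76921057-76921092 (minus strand, exon 1) in TIMP2 and chr22:33198057-33198092 (plus strand, exon 1) in TIMP3. TIMP1 shared 22 of 36 bases with TIMP2 and 24 with TIMP3, and TIMP2 shared 23 with TIMP3. No 30-base window of the 3 TIMP coding sequences, of MMP1 or of MMP14 was found in another gene. Even so, values of MMP14 and TIMP2, like those of MMP2, were not whole numbers in 4 of 9 Ribo-seq libraries each. The same held for MMP1 in 1 of 9 mRNA-seq libraries. Each TIMP gene overlaps a second protein-coding gene in the annotation, TIMP1 with SYN1, TIMP2 with CEP295NL and TIMP3 with SYN3.

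The mRNA-seq libraries held between 7902427 and 14144455 reads in coding genes, and the Ribo-seq libraries held between 46239 and 1718521 footprints in coding sequences (CDS). Young replicate 1, old replicate 2 and all 3 ICM Ribo-seq libraries had between 46239 and 225041 CDS footprints, so the footprint values of weakly expressed genes in them rest on a few reads. In old replicate 2, 40.6% of the footprints in coding genes fell in the CDS, against 77.5% to 95.8% in the other Ribo-seq libraries. All 16 fibroblast marker genes exceeded a mean of 1 CPM (reads per 1000000 reads in the columns used) in each condition, but their summed mRNA level was 36052 to 41444 CPM in young, 31562 to 36914 CPM in old and 15436 to 15811 CPM in ICM libraries. The summed level of 8 smooth muscle markers was 3905 to 4545 CPM in young, 6178 to 6311 CPM in old and 421 to 449 CPM in ICM libraries, with no marker at 0. The 12 epithelial markers summed to 316 to 341 CPM in young, 232 to 253 CPM in old and 46.0 to 53.1 CPM in ICM libraries, with NKX2-1 and ESRP1 at 0 in every condition. The 10 endothelial markers summed to 58.6 to 65.98, 90.7 to 103 and 54.7 to 62.3 CPM in the same order, with CDH5 at 0. The 12 leukocyte markers summed to 20.4 to 22.5, 31.8 to 34.9 and 57.2 to 68.1 CPM, with AIF1 and CD3E at 0. At most 3 of the epithelial, 2 of the endothelial and 1 of the leukocyte markers exceeded a mean of 1 CPM in any condition. The part of these marker levels in the changes below was not tested.

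In ICM cells the metalloproteinases separated into those that rose and those that fell. MMP1, MMP3 and MMP10 rose in mRNA-seq against young cells, MMP2 and MMP14 fell, TIMP2 and TIMP3 fell, and TIMP1 did not pass the test. Thus 7 of the 8 genes were called at an adjusted p under 0.05 (edgeR quasi-likelihood test), 3 higher and 4 lower, while 71.0% of the 13173 genes tested were called in this comparison. The median log2 change of the 8 genes was -0.38, beside -0.01 over all genes tested.

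**Figure D1:**
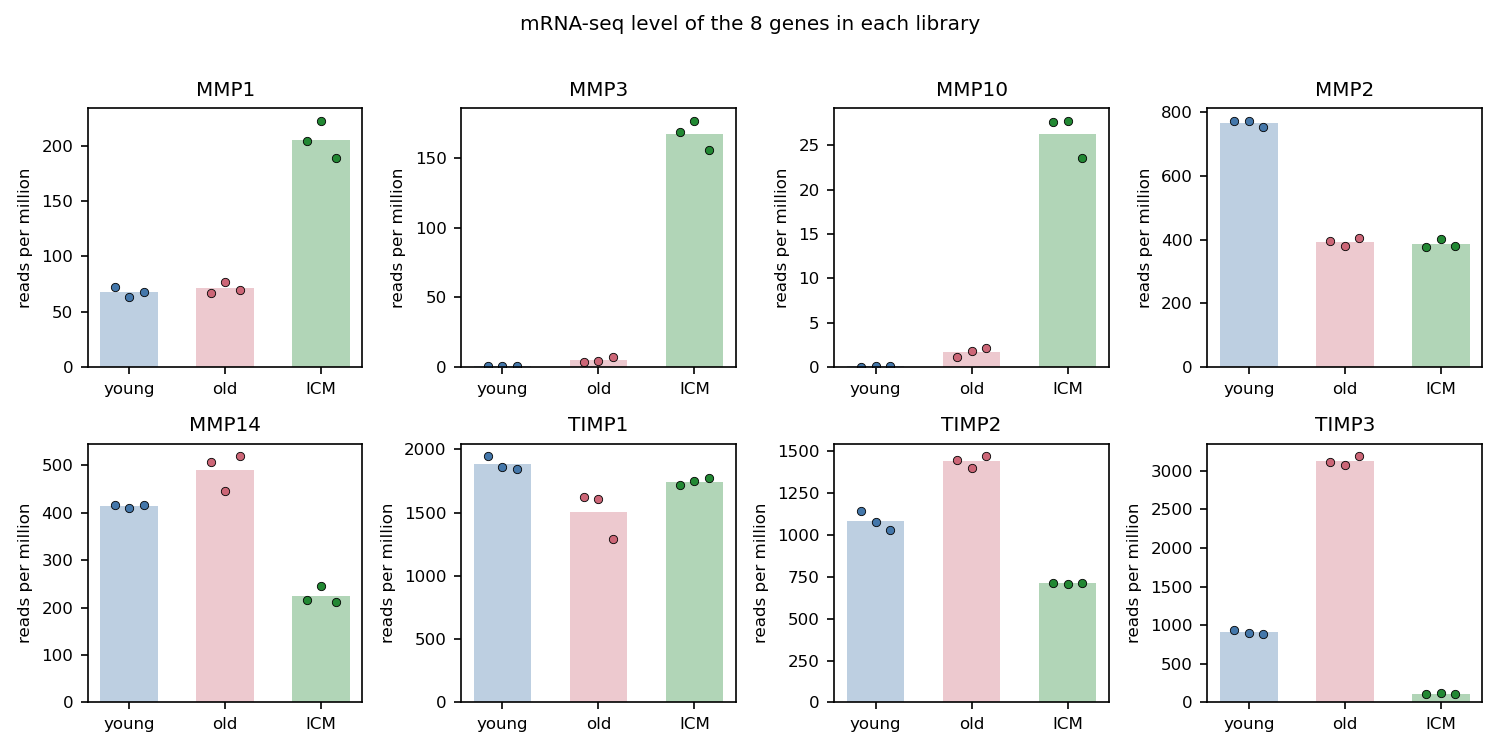
mRNA-seq level (CPM, linear axes from 0) of each gene in the 9 libraries. Points are replicates 1 to 3 from left to right and bars are their means. MMP1, MMP3 and MMP10 stand highest in the 3 ICM libraries, and TIMP3 stands between 3081 and 3192 CPM in old and between 109 and 118 CPM in ICM libraries.

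MMP1 encodes interstitial collagenase, which cuts fibrillar collagens. Its mRNA level was 72.4, 63.1 and 67.5 CPM in young replicates 1 to 3, 67.0, 76.7 and 69.8 CPM in old and 204, 222 and 189 CPM in ICM cells. The ICM libraries lay above all others, and the young and old libraries overlapped. The rise in ICM was 2.98-fold over young (log2 change 1.58 ± 0.08 SE, adjusted p = 2.38e-14), whereas old cells did not pass the test (0.17 ± 0.08, adjusted p = 0.0589). That last value lay near the threshold, with adjusted p between 0.0292 and 0.243 over 14 alternatives of the processing. It passed in 4 of them, 2 of which left out 1 library each, young replicate 1 (0.23) and old replicate 1 (0.21). ICM cells lay above old cells by 1.40 ± 0.07 on the log2 scale (adjusted p = 1.89e-13).

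MMP3 encodes stromelysin-1, which cuts proteoglycans, laminin and fibronectin and can activate other metalloproteinase precursors. It was nearly silent in young cells, at 0.506, 0.837 and 0.532 CPM, reached 3.45, 4.42 and 7.53 CPM in old cells and 169, 177 and 156 CPM in ICM cells. The 3 groups did not overlap. In reads, these levels correspond to 19 in the 3 young libraries together, 181.5 in old and 5799.5 in ICM. The fitted log2 change was 7.90 ± 0.19 in ICM (adjusted p = 8.46e-20), rank 6 among all genes tested, and 3.00 ± 0.34 in old cells (adjusted p = 7.26e-08). The direct comparison of ICM with old cells gave 4.90 ± 0.13, a 29.9-fold difference (adjusted p = 6.00e-19). From pooled reads alone the ratio of ICM to young was 260 with an exact 95% interval of 166 to 432, which covers counting error only.

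MMP10 encodes stromelysin-2, the closest relative of MMP3 among these genes. It was listed at 0, 0.132 and 0.145 CPM in young, 1.12, 1.87 and 2.21 CPM in old and 27.6, 27.8 and 23.5 CPM in ICM cells. As for MMP3, no library of one condition overlapped those of another. The fitted log2 change was 7.46 ± 0.28 in ICM (adjusted p = 1.99e-16, rank 9) and 3.68 ± 0.53 in old cells (adjusted p = 2.12e-06). The young libraries held only 3 reads of this gene together, so the size of the rise was poorly bounded. Pooled reads gave a ratio of 260 for ICM over young, with an exact 95% interval of 88.5 to 1261, and 17.5 for old over young, with an interval of 5.66 to 86.3. ICM against old, which does not use the young libraries, was 13.7-fold (3.78 ± 0.16, adjusted p = 4.59e-15). Reads divided with MMP3, which stood at 169, 177 and 156 CPM in ICM cells, may form part of the MMP10 levels. That part was not tested.

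MMP2 encodes gelatinase A, which degrades type IV collagen and denatured collagen. It stood at 773, 773 and 754 CPM in young, 397, 381 and 405 CPM in old and 378, 402 and 381 CPM in ICM cells. Both senescent groups lay below every young library and overlapped each other. The fall was 2.02-fold in ICM (log2 change -1.01 ± 0.06, adjusted p = 9.18e-13) and 1.82-fold in old cells (-0.87 ± 0.06, adjusted p = 2.40e-11). The small difference between ICM and old cells (-0.15 ± 0.06, adjusted p = 0.0375) lost its call in 8 of 15 alternatives, including those without old replicate 1 (-0.14), old replicate 3, ICM replicate 1 or ICM replicate 3 (each -0.13).

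MMP14 encodes MT1-MMP, a membrane-anchored protease that activates the precursor of MMP2 at the cell surface. Its level was 417, 410 and 416 CPM in young, 507, 445 and 519 CPM in old and 216, 246 and 211 CPM in ICM cells. Old libraries lay above and ICM libraries below all young ones. The rise in old cells was 1.26-fold (0.34 ± 0.07, adjusted p = 0.000261) and the fall in ICM cells 1.88-fold (-0.91 ± 0.07, adjusted p = 1.87e-10). ICM and old cells differed by -1.25 ± 0.07 on the log2 scale (adjusted p = 1.02e-12).

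TIMP3 encodes the inhibitor that stays bound to the matrix and also blocks ADAM17 and ADAMTS proteases. Its mRNA was at 939, 898 and 884 CPM in young, 3119, 3081 and 3192 CPM in old and 109, 118 and 109 CPM in ICM cells. The groups were far apart, with old highest and ICM lowest. The gene rose 3.69-fold in old cells (1.88 ± 0.06, adjusted p = 1.13e-16) and fell 8.26-fold in ICM cells (-3.05 ± 0.07, adjusted p = 2.80e-20). Between ICM and old cells the log2 difference was -4.93 ± 0.07 (adjusted p = 4.06e-23), or 30.4-fold, rank 52 from the lowest among 13173 genes.

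TIMP2 encodes the inhibitor that also links MMP14 to the MMP2 precursor during activation. It followed the order of TIMP3 with smaller steps, at 1141, 1078 and 1029 CPM in young, 1447, 1398 and 1470 CPM in old and 711, 708 and 715 CPM in ICM cells. No group overlapped another. The rise in old cells was 1.42-fold (0.50 ± 0.06, adjusted p = 1.64e-07), the fall in ICM cells 1.55-fold (-0.63 ± 0.06, adjusted p = 3.91e-09) and the difference of ICM from old cells -1.14 ± 0.06 (adjusted p = 2.21e-13).

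TIMP1, a soluble inhibitor of most metalloproteinases, was the inhibitor with the smallest differences. It was measured at 1947, 1862 and 1847 CPM in young, 1622, 1609 and 1291 CPM in old and 1719, 1747 and 1772 CPM in ICM cells. Old libraries were lowest, and old replicate 3 lay well below the other 2. The fall in old cells was 1.17-fold (-0.23 ± 0.07, adjusted p = 0.0107). It was no longer called without old replicate 3 (-0.12, adjusted p = 0.0788) or with CDS reads only (-0.16, adjusted p = 0.142), and over 15 alternatives the adjusted p ranged from 0.00221 to 0.217. ICM against young (-0.14 ± 0.07, adjusted p = 0.108) and ICM against old (0.09 ± 0.07, adjusted p = 0.298) did not pass the test.

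Old cells against young cells gave 7 called genes in mRNA-seq, 5 higher and 2 lower, where 66.1% of all genes tested were called. The 5 were MMP3, MMP10, MMP14, TIMP2 and TIMP3, and the 2 were MMP2 and TIMP1. ICM against old cells also gave 7, with MMP1, MMP3 and MMP10 higher and MMP2, MMP14, TIMP2 and TIMP3 lower, where 63.3% of all genes tested were called. The comparisons of ICM and of old cells with young cells share the young libraries, whereas that of ICM with old cells does not use them. Since mRNA-seq called most genes, the count of called members stands near the background in each comparison. Replicates are named only by a number in the labels, so that p-values measure the spread between these libraries, which may be partly technical.

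Ribosome footprints in the CDS showed which of these mRNA differences were also present on ribosomes. Of the 8 genes, 7 passed the filter on low counts in Ribo-seq, and MMP10 did not. Against young cells, 4 of the 7 were called in ICM cells, with MMP1 and MMP3 higher and MMP14 and TIMP3 lower, where 26.6% of the 4643 genes tested were called. In old cells 5 of 7 were called, with MMP3, MMP14, TIMP2 and TIMP3 higher and MMP2 lower, where 36.3% of genes were called. In every Ribo-seq comparison MMP3 passed the filter only through the ICM libraries, where it is highest. Its place among the called genes is therefore not independent of that level. With the young and old libraries alone, 6 of the 8 genes were tested and MMP3 was not among them. Between ICM and old cells 5 of 7 were called, MMP1 and MMP3 higher and MMP14, TIMP2 and TIMP3 lower, where 13.4% of genes were called. In simulated data of this depth 44.2% of genes changed 2-fold between ICM and young cells were recovered, so a gene that does not pass here may still differ.

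**Figure D2:**
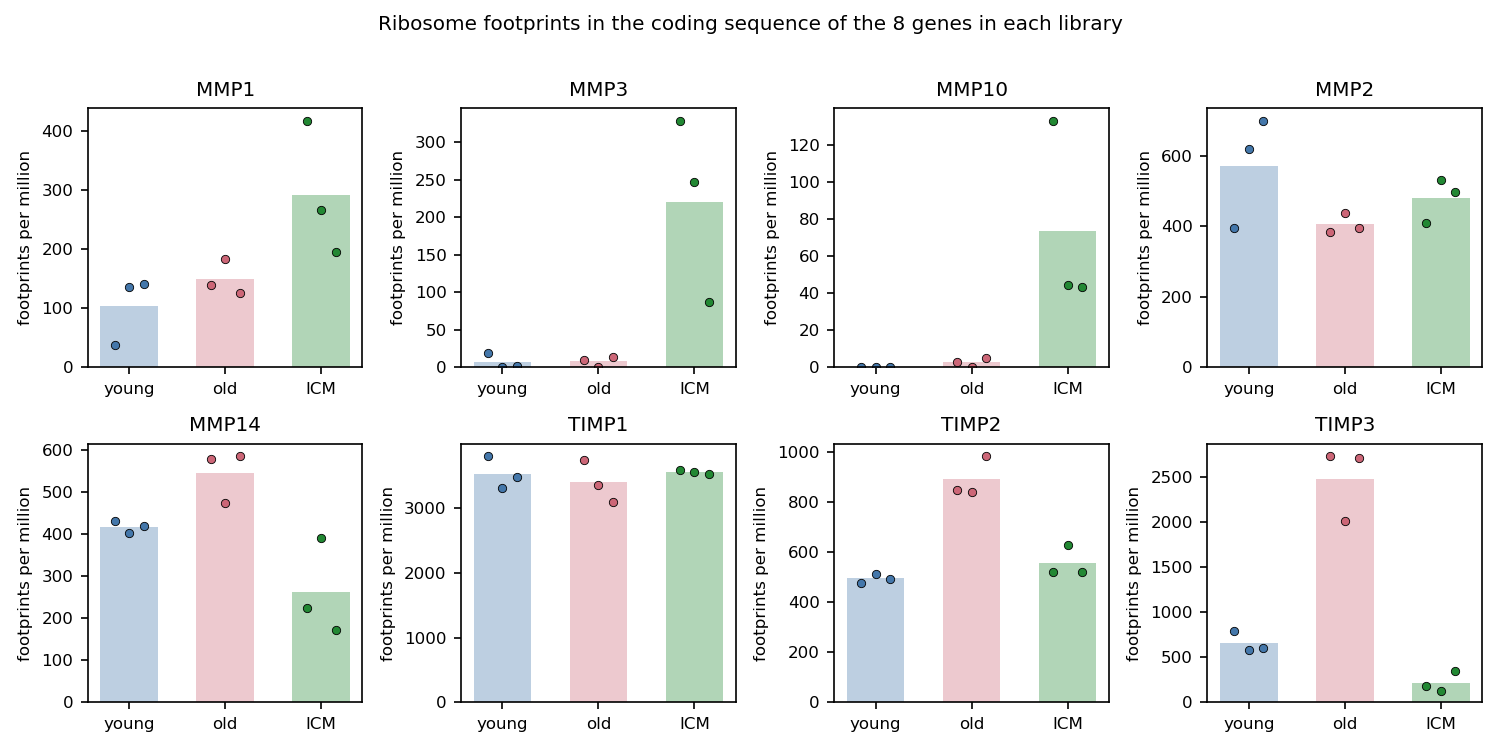
Footprints in the CDS (CPM, linear axes from 0) of each gene in the 9 Ribo-seq libraries. Points are replicates 1 to 3 from left to right and bars are their means. MMP3 and MMP10 are highest in the ICM libraries and spread widely there, while TIMP1 stays between 3092 and 3804 CPM in all 9 libraries.

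MMP1 had 2, 93 and 242 footprints in young, 232, 10 and 73 in old and 94, 21 and 9 in ICM cells. In CPM these are 36.8, 136 and 141 in young, 139, 183 and 125 in old and 418, 266 and 195 in ICM cells. Every ICM library exceeded every other library, and young replicate 1 was lowest with its 2 footprints. The rise in ICM was 2.53-fold over young (1.34 ± 0.26, adjusted p = 0.000143) and 2.27-fold over old cells (1.18 ± 0.26, adjusted p = 0.00116). Both calls were lost without ICM replicate 1, the deepest ICM library, with log2 changes of 0.70 (adjusted p = 0.210) and 0.54 (adjusted p = 0.408). DESeq2 also did not call the second (1.05, adjusted p = 0.0804).

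MMP3 had 1, 0 and 3 footprints in young, 16.5, 0 and 8 in old and 74, 19.5 and 4 in ICM cells, that is 18.4, 0 and 1.75 CPM in young, 9.86, 0 and 13.7 in old and 329, 247 and 86.5 in ICM cells. All ICM libraries lay above the young and old ones, which overlapped. Its log2 change in ICM against young was 7.13 ± 0.60 (adjusted p = 1.86e-11), rank 1 of the 4643 genes. MMP3 passed the filter only through its ICM libraries, so this p-value and rank are not independent of its ICM level. With a mean of at least 50 counts MMP3 was not tested, and 3 of 6 members were called in ICM against young. The ratio of pooled footprints was 171, with an exact 95% interval of 65.1 to 644. Against old cells it was 4.49 ± 0.46 (adjusted p = 2.14e-09). The 1 footprint of young replicate 1 stands for 18.4 CPM at its depth. In that library 7 genes whose mRNA was at least 50 CPM in ICM and at most 5 CPM in young and old cells summed to 175 CPM of footprints, against 17.0 and 21.1 in young replicates 2 and 3. In old replicate 2 they summed to 198, against 25.8 and 29.7 in the other 2, and in ICM libraries to between 1168 and 1701. The part of this difference in the value of MMP3 was not tested. The rise in old cells (2.64 ± 0.85, adjusted p = 0.0143) was lost with DESeq2 (adjusted p = 0.372) and when any of young replicate 2, young replicate 3, old replicate 1 or old replicate 3 was left out, with log2 changes of 2.13 to 2.76. With only the young and old libraries in the fit, MMP3 did not pass the filter.

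MMP10 had no footprint in the 3 young libraries, 4.5, 0 and 3 in old and 30, 3.5 and 2 in ICM cells. In ICM cells this is 133, 44.3 and 43.3 CPM, above every young and old library. With 3 counts in place of 0 over the pooled young libraries, the ratio of pooled footprints in ICM to young cells was 84.2. The ICM count, 36 after rounding, was taken as it stands, without its counting error. This ratio was 39.3 without ICM replicate 1, which held 30 of the ICM footprints, and 25.3 without young replicate 3, the deepest young library. For old cells, with 7.5 footprints taken as 7 after rounding, the same ratio was 2.48 and fell to 0.746 without young replicate 3.

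MMP2 had 395, 620 and 700 CPM of footprints in young, 385, 439 and 395 in old and 409, 532 and 497 in ICM cells, and young replicate 1 overlapped the other groups. ICM cells did not pass the test against young (-0.43 ± 0.21, adjusted p = 0.130) or against old cells (0.11 ± 0.22, adjusted p = 0.807). The fall in old cells (-0.54 ± 0.18, adjusted p = 0.0207) was lost in 10 of 16 alternatives, among them DESeq2 (adjusted p = 0.144) and the fits without young replicate 2 (-0.54), young replicate 3 (-0.40), old replicate 1 (-0.55), old replicate 2 (-0.48) or old replicate 3 (-0.58). Without young replicate 1 the ICM value was called (-0.59, adjusted p = 0.0383).

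MMP14 had 432, 403 and 421 CPM of footprints in young, 579, 475 and 586 in old and 224, 393 and 173 in ICM cells, which kept the order seen in mRNA with no overlap between groups. The difference between ICM and old cells was -1.23 ± 0.24 (adjusted p = 0.000207) and kept its call in all 16 alternatives run. The differences of each from young cells were less secure. In ICM cells the fall was 1.60-fold (-0.68 ± 0.24, adjusted p = 0.0340) and was lost in 8 of 16 alternatives, among them DESeq2 (adjusted p = 0.0889) and the fits without young replicate 2 (-0.76), young replicate 3 (-0.71) or ICM replicate 1 (-0.57). In old cells the rise was 1.47-fold (0.56 ± 0.19, adjusted p = 0.0192) and was lost in 10 of 16, among them DESeq2 (adjusted p = 0.188) and the fits without young replicate 2 (0.46), young replicate 3 (0.51), old replicate 1 (0.46) or old replicate 3 (0.44).

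TIMP3 had 790, 585 and 600 CPM of footprints in young, 2732, 2011 and 2706 in old and 182, 127 and 346 in ICM cells. As in mRNA-seq, the groups did not overlap. The rise in old cells was 4.35-fold (2.12 ± 0.19, adjusted p = 8.20e-11), the fall in ICM cells 3.20-fold (-1.68 ± 0.26, adjusted p = 6.41e-06) and the difference of ICM from old cells 13.9-fold (-3.80 ± 0.25, adjusted p = 7.10e-14). These calls held in all alternatives run. ICM replicate 3, which gave the highest ICM value from 16 footprints, also held 930 CPM of footprints of 19 genes whose mRNA was at least 50 CPM in young and at most 5 CPM in ICM cells. The same 19 genes summed to 57.8 and 266 in ICM replicates 1 and 2 and to between 2141 and 2592 in young cells. The part of these footprints in the value of TIMP3 was not tested. Without ICM replicate 3 the fall of TIMP3 in ICM cells was -1.98 (adjusted p = 2.64e-08).

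TIMP2 had 478, 512 and 494 CPM of footprints in young, 849, 841 and 982 in old and 520, 627 and 519 in ICM cells. Old libraries stood above both other groups, and ICM libraries stood slightly above young ones, although the mRNA was lower in ICM. The rise in old cells was 1.94-fold (0.96 ± 0.17, adjusted p = 4.05e-05), ICM cells did not pass the test against young (0.14 ± 0.20, adjusted p = 0.630), and ICM lay below old cells by 0.81 ± 0.19 on the log2 scale (adjusted p = 0.00266). With every library thinned to the shallowest, neither the rise in old cells (0.73, adjusted p = 0.0570) nor this difference (-0.42, adjusted p = 0.324) was called.

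TIMP1 had 3804, 3314 and 3479 CPM of footprints in young, 3746, 3363 and 3092 in old and 3590, 3558 and 3525 in ICM cells. The groups overlapped, and none of the 3 comparisons passed the test, with log2 changes of 0.01 ± 0.15, 0.06 ± 0.15 and -0.04 ± 0.15 for ICM against young, old against young and ICM against old.

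**Figure D3:**
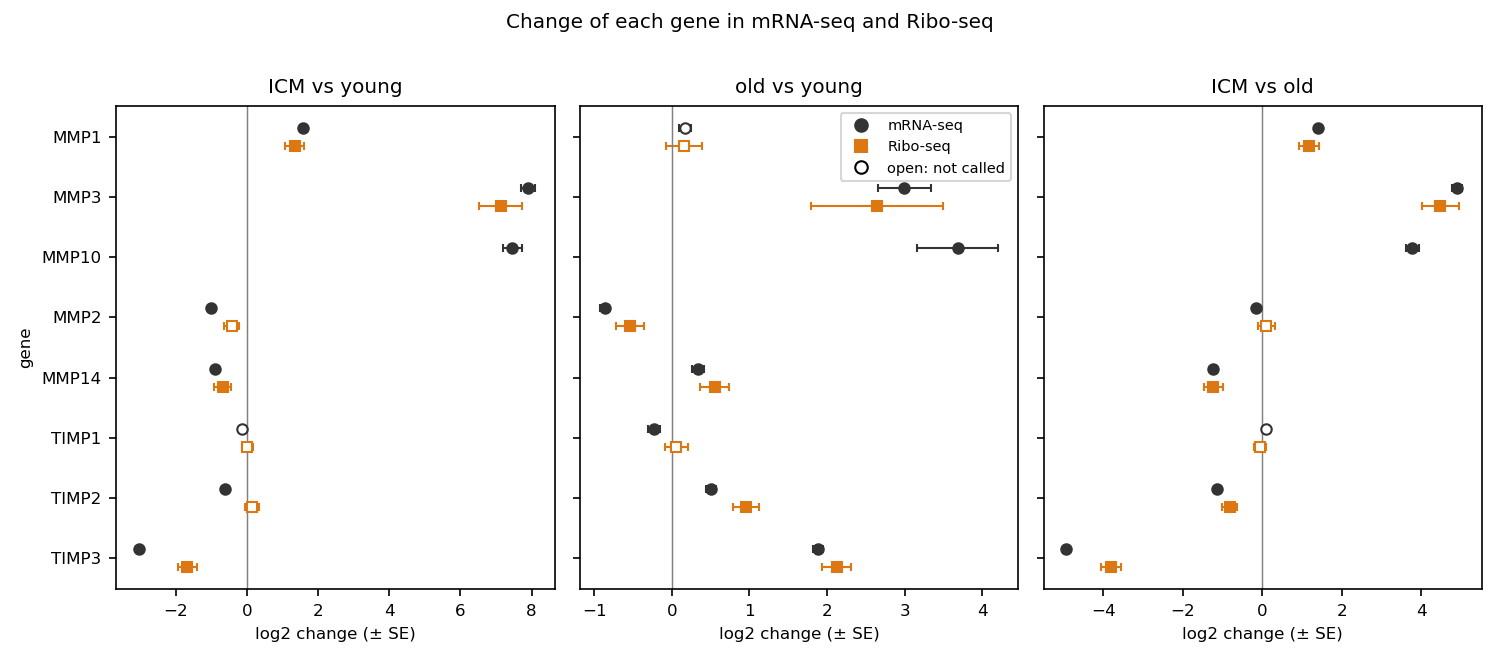
Log2 change (horizontal axis, ± SE from the edgeR fit) of each gene in mRNA-seq (circles) and Ribo-seq (squares) for the 3 comparisons, each panel with its own axis. Open symbols are not called at an adjusted p under 0.05, and MMP10 was not tested in Ribo-seq. In ICM against young the 2 assays stand furthest apart for TIMP3, at -3.05 in mRNA-seq and -1.68 in Ribo-seq.

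Translational efficiency, the footprint level relative to the mRNA level, was compared within lysates, as the change in Ribo-seq beyond the change in mRNA-seq. In ICM against young cells it was called for TIMP3 and TIMP2, both higher, while 2.45% of the 4618 genes tested were called. The footprint level divided by the mRNA level was 0.724 ± 0.103 (SD, n = 3) in young, 0.792 ± 0.122 in old and 1.98 ± 1.09 in ICM cells for TIMP3, and 0.458 ± 0.034, 0.619 ± 0.044 and 0.781 ± 0.090 for TIMP2. The fitted log2 differences were 1.36 ± 0.29 for TIMP3 (adjusted p = 0.00385) and 0.76 ± 0.20 for TIMP2 (adjusted p = 0.0352). Both depended on single libraries. The call of TIMP3 was lost without young replicate 2 (1.19, adjusted p = 0.0862), young replicate 3 (1.26, adjusted p = 0.0595), ICM replicate 1 (1.30, adjusted p = 0.0921) or ICM replicate 3 (1.04, adjusted p = 0.0561), the library with the footprints of young-high genes given above, whose part in this value was not tested. Without young replicate 1, old replicate 2 and ICM replicate 3 together it was 1.07 (adjusted p = 0.0152). That of TIMP2 was lost in 9 of 13 alternatives, including each fit without 1 young or ICM lysate, with values of 0.55 to 0.72 and adjusted p of 0.0839 to 0.319, and the fit with CDS reads of mRNA only (0.61, adjusted p = 0.111). MMP2 (0.59 ± 0.22, adjusted p = 0.146) and the other 4 genes tested did not pass. With edgeR none of the 7 was called in old against young cells, where 1.45% of all genes were called, or in ICM against old cells, where 0.260% were called, and DESeq2 also called 0 in both. At an unadjusted p under 0.05 there were 2 in the former, TIMP1 and TIMP2, where 605 of all 4618 genes tested passed. In the latter there was 1, TIMP3, where 489 of 4618 passed. The difference nearest to the threshold there was that of TIMP3 between ICM and old cells (1.09 ± 0.28, adjusted p = 0.0756).

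Levels of different genes were compared as CDS reads per kilobase of coding length and per 1000000 CDS reads (RPKM). TIMP1 was the highest of the 8 genes in every condition and both assays. In young mRNA-seq it stood at 3374 ± 275 RPKM (SD, n = 3), above TIMP2 (590 ± 23.5), TIMP3 (439 ± 21.1), MMP2 (432 ± 5.21), MMP14 (195 ± 3.45), MMP1 (58.6 ± 3.45), MMP3 (0.640 ± 0.224) and MMP10 (0.101 ± 0.088). TIMP3 and MMP2 were the neighbours in this order that overlapped. In old cells TIMP3 (1409 ± 128) passed TIMP2 (814 ± 64.3), and MMP14 (237 ± 19.9) and MMP2 (232 ± 4.33) overlapped.

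The order changed most in ICM cells. There TIMP1 (3125 ± 118) and TIMP2 (430 ± 10.2) were followed by MMP2 (223 ± 6.02), MMP1 (178 ± 16.0), MMP3 (153 ± 11.3), MMP14 (107 ± 10.02), TIMP3 (58.4 ± 3.01) and MMP10 (27.1 ± 2.17). The lowest MMP1 library and the highest MMP3 library both stood at 162 RPKM. MMP3 thus lay above MMP14 in ICM cells and far below it in young cells, and TIMP3 fell from just above MMP2 in young cells to below MMP14.

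Footprints spread more widely and gave another place to TIMP3. In ICM cells TIMP1 (5729 ± 52.6 RPKM) and TIMP2 (841 ± 93.8) were above TIMP3 (345 ± 180), MMP2 (242 ± 32.0), MMP1 (208 ± 81.0), MMP3 (154 ± 86.1), MMP14 (151 ± 65.8) and MMP10 (51.6 ± 36.2). TIMP3, which lay below MMP14 in mRNA-seq, had the highest mean after TIMP1 and TIMP2 here. From TIMP3 to MMP14 each gene overlapped its neighbour in this order. In old cells TIMP3 footprints reached 3923 ± 647 RPKM, below TIMP1 (5476 ± 529).

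**Figure D4:**
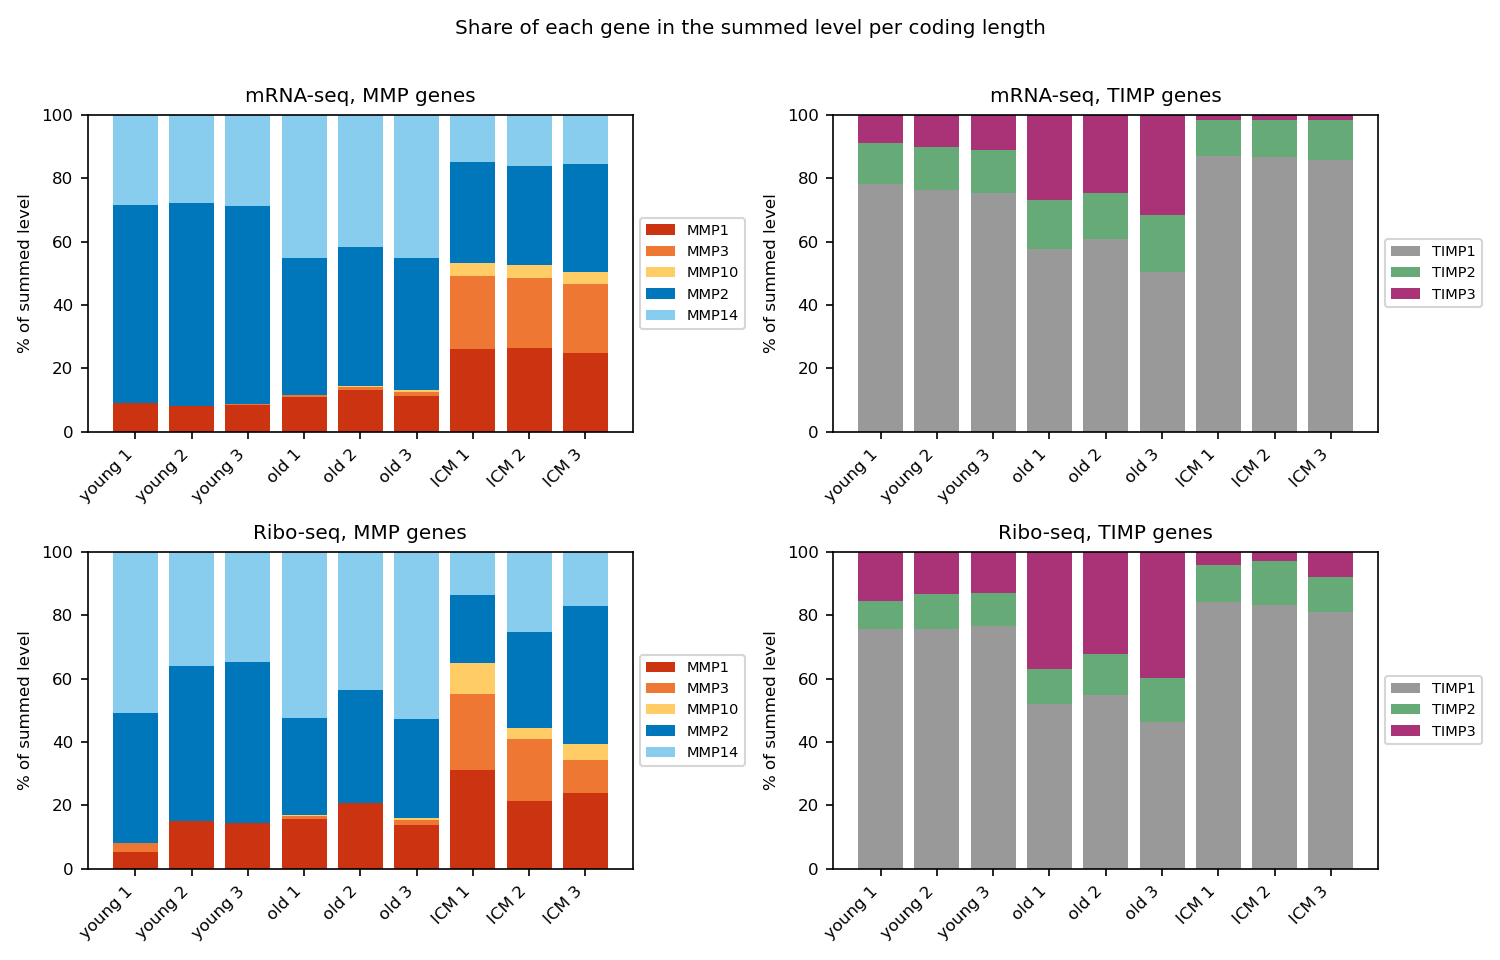
Share (%) of each gene in the summed CDS level per coding length of the 5 MMP genes (left) and the 3 TIMP genes (right) in each library, for mRNA-seq (top) and Ribo-seq (bottom). In mRNA-seq MMP1, MMP3 and MMP10 together hold 50.3% to 53.1% of the MMP sum in ICM libraries, against 8.23% to 9.07% in young ones.

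Adding the 5 proteases, the summed mRNA level was about the same in young (687 ± 4.57 RPKM) and ICM cells (687 ± 42.0) and lower in old cells (539 ± 22.9). What differed was its makeup. The members that lie on chromosome 11, MMP1, MMP3 and MMP10, held 8.64% ± 0.42 of the sum in young, 12.998% ± 1.34 in old and 52.0% ± 1.46 in ICM cells. In footprints they held 12.6% ± 3.93, 17.9% ± 2.55 and 49.6% ± 13.5.

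For the inhibitors, TIMP3 held 10.02% ± 1.06 of the summed TIMP mRNA level in young, 27.7% ± 3.46 in old and 1.62% ± 0.06 in ICM cells. Its share of TIMP footprints was 13.8% ± 1.36, 36.4% ± 3.86 and 4.97% ± 2.53. The ratio of the MMP sum to the TIMP sum in mRNA was 0.156 ± 0.009 for young, 0.106 ± 0.009 for old and 0.190 ± 0.006 for ICM cells, with no overlap between groups. In footprints it was 0.0821 ± 0.0193, 0.0590 ± 0.0044 and 0.117 ± 0.030, and young and old overlapped, as did young and ICM. These sums describe RNA and footprints, not enzyme activity, and were not tested.

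The 19 other genes of the family that were searched, 18 MMP genes and TIMP4, were all listed in the files, and 9 passed the mRNA-seq filter. None passed in Ribo-seq. Against young cells 4 of the 9 were called higher and 4 lower in ICM cells, and 4 higher and 2 lower in old cells, near the 71.0% and 66.1% of all genes called. The median log2 change of the 9 was 0.34 in ICM and -0.29 in old cells. MMP24, a membrane-type protease, was the most abundant of them, at 27.1 ± 3.79 CPM in young, 58.6 ± 5.204 in old and 75.9 ± 6.29 in ICM cells (log2 change 1.21 ± 0.10 in old and 1.47 ± 0.10 in ICM). MMP15, another membrane-type protease, rose from 3.47 ± 0.70 to 6.81 ± 0.66 in old and 14.5 ± 1.59 CPM in ICM cells (1.02 ± 0.17 and 2.00 ± 0.15). MMP19 had 18.6 ± 1.47 CPM in young and rose to 21.8 ± 1.13 in old (0.32 ± 0.09) but fell to 13.01 ± 0.67 in ICM cells (-0.55 ± 0.10).

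**Figure D5:**
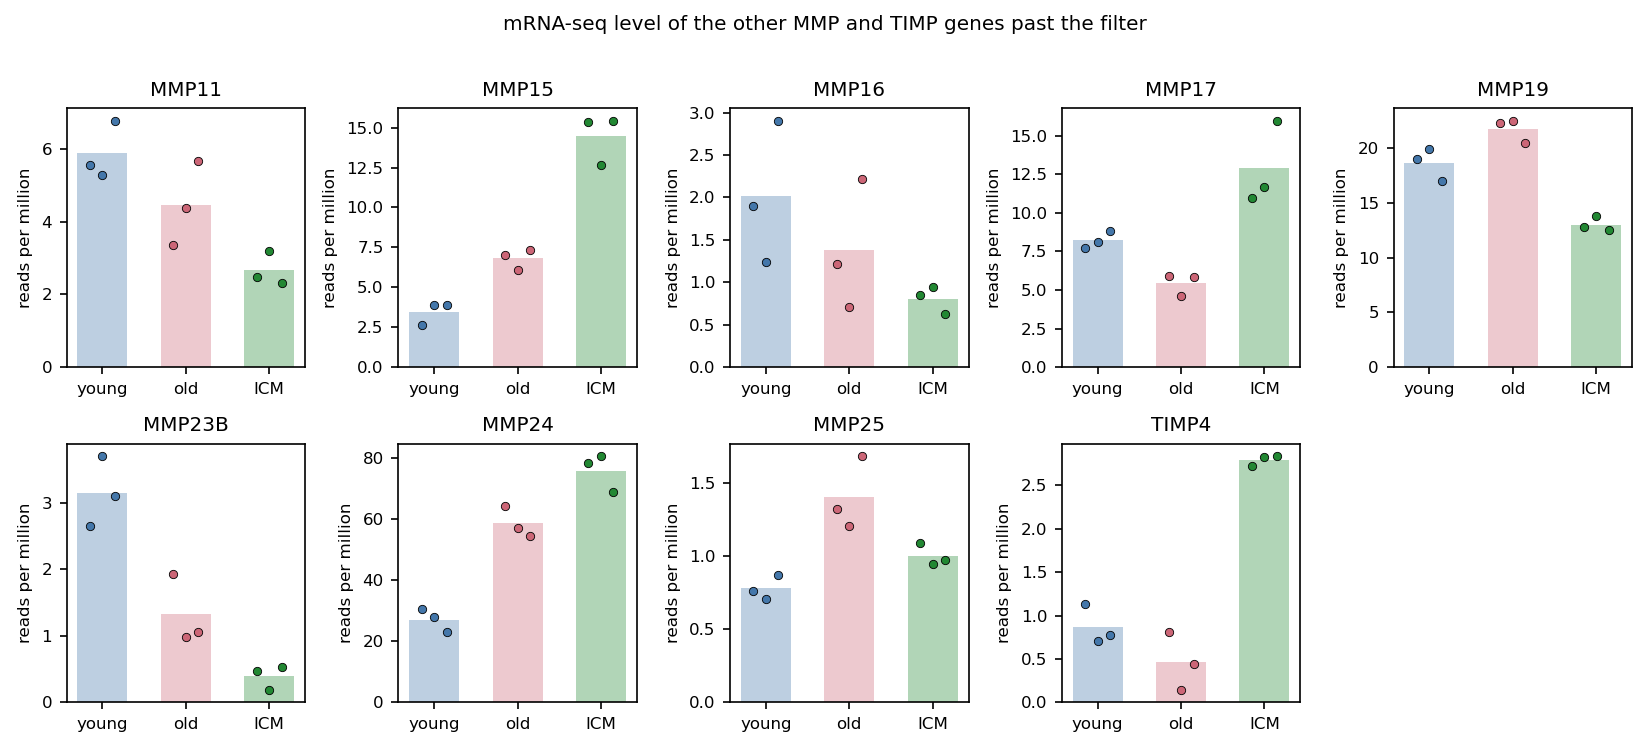
mRNA-seq level (CPM, linear axes from 0) of the 9 other MMP and TIMP genes past the filter. Points are replicates 1 to 3 from left to right and bars are their means. MMP24, the most abundant of them, had mean levels of 27.1, 58.6 and 75.9 CPM in young, old and ICM cells.

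MMP17, anchored by a lipid, had 8.21 ± 0.55 CPM in young, fell to 5.44 ± 0.73 in old (-0.52 ± 0.17) and rose to 12.9 ± 2.70 in ICM cells (0.61 ± 0.14). MMP11 (-1.17 ± 0.20), MMP16 (-1.32 ± 0.40) and MMP23B (-2.98 ± 0.34) fell in ICM cells, and of these MMP23B also fell in old cells (-1.23 ± 0.27). TIMP4 was scarce, at 0.873 ± 0.233 CPM in young, and rose to 2.80 ± 0.06 CPM in ICM cells (1.68 ± 0.30). MMP25 rose in old cells (0.92 ± 0.31) at 1.40 ± 0.25 CPM. Of the genes that did not pass, MMP12 had the most reads in ICM cells, with 2 in young, 7 in old and 44 in ICM cells over 3 libraries each. MMP13 and MMP27 had 0 reads in the 9 libraries, which allows up to 3.

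Around the proteases stand genes that activate or restrain them. Of 24 such genes 22 passed the mRNA-seq filter, of which 10 rose and 9 fell in ICM cells and 16 rose and 5 fell in old cells against young, where 71.0% and 66.1% of all genes were called. The median log2 change was 0.03 in ICM and 0.94 in old cells, beside -0.01 and -0.01 over all genes tested. RECK, a membrane-anchored inhibitor of metalloproteinases, rose from 103 ± 3.86 to 268 ± 5.62 CPM in ICM cells (1.35 ± 0.06), and its footprints rose as well (1.10 ± 0.28, adjusted p = 0.00358). PCSK5, a proprotein convertase, rose in ICM (2.46 ± 0.13) and in old cells (1.96 ± 0.14). THBS2, a thrombospondin involved in the clearance of MMP2, fell in both (-3.63 ± 0.10 and -1.59 ± 0.08), as did PCOLCE, an enhancer of procollagen processing (-3.58 ± 0.08 and -2.31 ± 0.07). CLDN1, a tight junction protein, rose from 23.6 ± 1.64 to 275 ± 18.7 CPM in old cells and stood at 6.76 ± 1.02 CPM in ICM cells (-5.46 ± 0.09 against old).

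Plasmin, which can activate several metalloproteinase precursors, is formed by the plasminogen system. Of 13 genes listed for it, 10 passed the mRNA-seq filter, with 3 higher and 5 lower in ICM and 7 higher and 2 lower in old cells against young, where 71.0% and 66.1% of all genes were called. Their median log2 change was -0.34 in ICM and 0.43 in old cells. The activator PLAU fell from 696 ± 28.3 to 295 ± 28.4 CPM in ICM cells (-1.26 ± 0.07), and its receptor PLAUR fell too (-1.11 ± 0.07). The other activator, PLAT, rose in ICM (1.01 ± 0.08) and more in old cells (2.47 ± 0.08), where the inhibitor SERPINE2 rose from 80.2 ± 1.84 to 747 ± 35.5 CPM (3.31 ± 0.07). Against old cells ICM cells had 1 gene higher and 8 lower in this list, with a median log2 change of -1.17, where 63.3% of all genes were called.

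Among 32 related ADAM and ADAMTS proteases, several of which TIMP3 inhibits, 25 passed the filter, with 11 higher and 13 lower in ICM and 10 higher and 10 lower in old cells, where 71.0% and 66.1% of all genes were called. Their median log2 change was -0.28 in ICM and 0.03 in old cells. ADAM19 rose from 182 ± 9.69 to 945 ± 57.4 CPM in old cells (2.47 ± 0.07) and stood at 68.9 ± 3.78 CPM in ICM cells (-3.90 ± 0.08 against old). ADAMTS5, an aggrecanase, rose in both ICM (1.11 ± 0.11) and old cells (1.88 ± 0.11), and ADAMTS6 fell in both (-3.27 ± 0.14 and -0.81 ± 0.11). Among 19 cathepsins and cystatins, 15 passed the filter, with 8 higher and 3 lower in ICM, a share near the 71.0% of all genes called, and 11 higher and 2 lower in old cells, where 66.1% of all genes were called. Their median log2 change was 0.51 in ICM and 0.66 in old cells. CTSL, a lysosomal cysteine protease, rose from 90.1 ± 1.29 to 312 ± 24.0 CPM in ICM cells (1.77 ± 0.07), and CST3, its secreted inhibitor cystatin C, rose more in old cells, where it reached 505 ± 27.4 CPM (1.41 ± 0.07).

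Metalloproteinase genes are classically switched on by cytokines, growth factors and the AP-1 and ETS transcription factors. Of 24 such genes 21 passed the filter, with 6 higher and 11 lower in ICM and 10 higher and 7 lower in old cells, where 71.0% and 66.1% of all genes were called. Their median log2 change was -0.25 in ICM and 0.20 in old cells. In ICM cells ETS2 rose from 76.6 ± 3.50 to 278 ± 7.97 CPM (1.84 ± 0.07) and JUN from 138 ± 14.5 to 238 ± 9.92 CPM (0.76 ± 0.09), and footprints of both rose (2.29 ± 0.23, adjusted p = 1.81e-09, and 1.05 ± 0.28, adjusted p = 0.00518). ETS1 (-1.94 ± 0.07), NFKB1 (-1.23 ± 0.08) and JUNB (-1.08 ± 0.16) fell. In old cells TGFB2 rose from 49.1 ± 2.53 to 174 ± 11.7 CPM (1.92 ± 0.07), whereas LIF (-1.71 ± 0.08) and IL6 (-1.30 ± 0.15) fell. The values of all list genes named here are from mRNA-seq unless footprints are stated, and each passed the test.

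The genes whose mRNA pattern was most like that of each member were sought by Pearson's r of log2(CPM + 1) over the 9 mRNA-seq libraries, among 10814 expressed genes. For MMP3 they were MMP10 (r = 0.999), ADM (0.999) and LAMA3 (0.998), and MMP10 was likewise closest to MMP3. The part of reads divided between MMP3 and MMP10 in this value was not tested. MMP1 was closest to GSTM3, HKDC1 and CTSL, and MMP2 to DPYSL3, MEX3A and SH3PXD2B, with r of 0.996 to 0.998. TIMP3 was closest to LRRC17, ANXA6 and COL11A1, TIMP2 to NTM, LIMS2 and COL11A1, and MMP14 to CCBE1, ECE1 and MSN. TIMP1 had the weakest match, with LSM3 at r = 0.975. The 9 libraries fall into 3 conditions, so these values mostly describe the relative spacing of 3 group means, with no test.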

How the data were processed

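The 18 libraries of IMR90 cells comprised 9 of mRNA-seq and 9 of Ribo-seq, grouped by their titles. The authors deposited estimated counts, unscaled, with a row for each gene symbol and a column for each of 5′ UTR, CDS and 3′ UTR. The submitters' processing notes name STAR 2.6.0c, featureCounts, DESeq2, deepTools and GRCh37 with no role, and how reads with several matches were divided was not given in the sources used here. The study's methods give 1 lysate for both assays of a replicate and poly(A)-selected mRNA.

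For mRNA-seq the 3 columns were summed, and for Ribo-seq CDS reads were used. Counts were rounded and tested with edgeR 4.0.16 in R 4.3.3 (TMM scaling, filterByExpr, quasi-likelihood test, two-sided), with the 9 libraries of an assay in one fit and Benjamini-Hochberg adjustment over all genes. Translational efficiency was the interaction of assay and condition over the 18 libraries, with each lysate a block. SE was taken from the F statistic. CPM is reads per 1000000 reads in the columns used. Within conditions, the deviations of the 2 libraries of a lysate correlated with r between -0.0793 and 0.136, so the block rests on the methods' statement. On simulated 2-fold changes of 200 genes between ICM and young cells, tested on 13010 genes in mRNA-seq, 4288 in Ribo-seq and 4273 for translational efficiency, 99%, 44.2% and 42.3% of those past the filter were recovered.

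All 8 members and every other MMP or TIMP past the mRNA-seq filter could be named. From each other list up to 3 called genes with the largest rise and 3 with the largest fall in mRNA-seq were eligible, with a mean of at least 5 CPM and no overlap of replicates. MMP12, MMP13 and MMP27 were named after their values were seen. Members and lists were chosen with earlier results of these data known. Site sequences were read from GENCODE transcript sequences, with positions from the GENCODE annotation lifted to GRCh37. Alternatives were RLE scaling, DESeq2 1.42.0, no filter, a mean of at least 50 counts, only the compared groups, a replicate block, other columns, a log2 threshold of 0.6, thinning to 46170 reads and leaving out each library. Intervals and floors cover counting error only.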

Additional observations from a re-analysis of the deposited data

Results flagged for a closer look

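Genes stood out because passaging and ICM moved them in opposite directions from young cells, with the difference itself passing the edgeR test of ICM against old cells. In mRNA-seq these were TIMP3, with a log2 difference of -4.93 between ICM and old cells, MMP14 with -1.25 and TIMP2 with -1.14. In Ribo-seq they were TIMP3 with -3.80 and MMP14 with -1.23. TIMP2 footprints rose in old cells but did not fall past the test in ICM cells. All 5 differences kept their sign and their call in every alternative run. The separate changes of MMP14 footprints from young cells (-0.68 in ICM and 0.56 in old cells) share the young libraries, and each lost its call in some alternatives.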

How the results depend on the processing

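Of 947 comparisons of a member's result with an alternative, 824 kept direction and side of the threshold, 66 lost and 9 gained the call, and 48 changed sign. No called result changed sign, and 23 of 37 called results kept their call in every alternative run. RLE in place of TMM scaling moved the median of all genes by at most 0.069 (log2). Where a cause is not named, it was not tested.

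Thinning every library to the shallowest left 4, 4 and 3 called members in mRNA-seq and 1, 1 and 2 in Ribo-seq for ICM against young, old against young and ICM against old, with fewer reads and fewer genes tested. A log2 threshold of 0.6 left 4 in mRNA-seq and 3 in Ribo-seq for old against young. For that Ribo-seq comparison DESeq2 called 2. For translational efficiency of ICM against young, no filter, CDS reads only, and leaving out young replicate 1, old replicate 2 and ICM replicate 3 together (chosen after seeing the data) each left 1. Leaving out 1 library at a time gave 2 to 6, 2 to 5 and 4 to 6 called members in Ribo-seq, 7 to 7, 6 to 8 and 6 to 7 in mRNA-seq, and 0 to 1, 0 to 0 and 0 to 1 for translational efficiency. The 1 in the last comparison was TIMP3 without ICM replicate 2 (1.27, adjusted p = 0.0399).

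Deviations of same-numbered libraries of different conditions correlated with r from -0.197 to 0.274 in mRNA-seq and 0.00409 to 0.0562 in Ribo-seq. All pairs of replicate 3 in mRNA-seq were positive (0.146 to 0.274), but not every pair of the other numbers was above 0.1. With a replicate block 2 members were called in Ribo-seq for old against young, where MMP2, MMP3 (2.28, adjusted p = 0.114) and MMP14 lost the call, and TIMP1 in ICM against young was -0.00098. Without the lysate as replicate block, 1 member was called for translational efficiency of old against young, TIMP2 (0.52, adjusted p = 0.0153).

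The results that changed sign were small and not called. In mRNA-seq TIMP1 of ICM against young was 0.12 when thinned, and TIMP1 of ICM against old ranged from -0.013 to 0.15 without 1 library. In Ribo-seq of ICM against young TIMP1 was -0.15 with no filter, -0.076 when thinned, -0.032 without the 3 shallowest libraries and -0.10 to -0.020 without 1 library, and TIMP2 was -0.032 with no filter. In old against young TIMP1 was -0.0013 with a mean of at least 50 counts, -0.031 when thinned and -0.086 to 0.18 without 1 library. In ICM against old MMP2 was -0.072 with no filter, -0.027 without the 3 libraries and -0.013 to 0.13 without 1 library, and TIMP1 was 0.064 with at least 50 counts, 0.011 with only the compared groups, 0.041 with UTR reads added and -0.21 to 0.050 without 1 library. For translational efficiency of ICM against young, MMP14 was -0.027 and TIMP1 -0.090 with no filter, and -0.055 to 0.26 and -0.018 to 0.11 without 1 lysate. In old against young MMP1 was -0.098 and MMP3 0.42 without the 3 libraries, and -0.12 to 0.17 and -1.04 to 0.36 without 1 lysate. In ICM against old MMP2 was -0.0051 with no filter, and MMP14 was 0.017 with RLE, 0.022 with DESeq2, 0.031 with at least 50 counts, 0.0030 with CDS reads only and -0.30 to 0.043 without 1 lysate. Depth limits Ribo-seq most, where MMP3 had at most 3 footprints in any young library and MMP10 none.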

Other observations

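The mRNA reads of the inhibitors fell on different parts of their transcripts. In the 3 conditions 25.8% to 29.8% of TIMP1 mRNA reads were assigned to the 5′ UTR column and 0.0503% to 0.0753% to the 3′ UTR column, although the annotated 5′ UTR of the transcript used here has 47 bases and its 3′ UTR 101. TIMP2 and TIMP3 had 72.9% to 75.2% and 70.0% to 75.0% of their mRNA reads in the 3′ UTR column, with annotated 3′ UTRs of 2693 and 3667 bases. MMP14 had 39.4% to 40.3%. In Ribo-seq the pooled share of TIMP1 footprints in the 5′ UTR column was 0.224% in young cells, 0.218% in old cells and 0 of 1252 footprints in ICM cells, which allows up to 3. The source of the reads in the TIMP1 5′ UTR column was not tested, and with CDS reads only the fall of TIMP1 mRNA in old cells was not called.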
